A study of Sus scrofa with 35 samples.

Results

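The genes described here encode pre-mRNA splicing factors and heterogeneous nuclear ribonucleoproteins (hnRNPs), measured in the whole blood of pigs kept in thermoneutral (TN) conditions or under heat stress (HS). They were chosen by name, as all probes that are not controls and whose gene name began with HNRNP, HNRPD, SNRP, SF3A, SF3B, SRSF, SFRS or PRPF. The choice gave 207 of the 60305 probes of the array, with 75 of the 45222 names that the files list and 71 genes once older names had been replaced by current symbols where the reference tables allowed. Some former names, such as SFRS3, SFRS5 and SFRS9, remained and were counted apart from SRSF3, SRSF5 and SRSF9, so counts of genes are slightly too high. Of these probes, 199 (66 genes) were in the table of log2 values deposited by the authors. They comprised 65 probes of SR proteins (SRSF and its former prefix SFRS), 41 of hnRNPs, 35 of pre-mRNA processing factors (PRPF), 29 of SF3A and SF3B subunits and 29 of small nuclear ribonucleoprotein (snRNP) proteins. The name SR proteins is a label by prefix here, since SFRS also covers genes now named otherwise, such as PNISR, SFRS8 and SFRS15. The other 8 probes (of HNRNPH1, HNRNPH3, SRSF5, SFRS7, SRSF12, HNRPDL, SFRS3 and PRPF40B) were outside this table and were well above background on 0 to 15 of the 35 arrays.

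The study compared castrated growing males of 3 breeds, Creole (CR), Large White (LW) and their F1 cross, with 1 array for each pig. TN pigs had been kept at 24 °C and were slaughtered before the temperature rose, whereas HS pigs followed a hot period of 5 days per the labels. The labels of the samples give 30 °C for HS and the protocol gives 32 °C, so the groups are called HS and TN here. There were 6 pigs in each of the groups CR HS, F1 TN, F1 HS, LW TN and LW HS, and 5 pigs in CR TN. The labels give neither age, litter, pen nor day of slaughter, so p-values measure the spread between these pigs only. Pigs that shared a litter, a pen or a day of slaughter were treated as independent, which can make p-values too small. As the HS pigs were the ones slaughtered later, the hot period and the day of slaughter cannot be told apart.

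Splicing removes introns from pre-mRNA in the spliceosome, a large machine built from the U1, U2, U4, U5 and U6 snRNPs. Most snRNPs carry a ring of Sm proteins (the SNRPB, SNRPD, SNRPE, SNRPF and SNRPG genes), SF3A and SF3B belong to the U2 snRNP and help it to settle on the branch point, and several PRPF proteins join or rebuild the U4/U6.U5 tri-snRNP. SR proteins, rich in arginine and serine, bind exons and mostly favour their use, while hnRNPs coat nascent RNA and often oppose it. In blood these transcripts come mainly from nucleated white cells and from immature red cells, and in a mixture of this kind fewer cells of a type and less RNA per cell cannot be told apart.

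Each probe is a 60-base sequence, and the following ones are shown because the results below turn on them. The first of them belong to SF3B1, the largest SF3B subunit, and start at bases 441, 1478, 3528 and 3692 of the target transcript as listed in the scanner files. The SRSF2 probe comes from the repetitive part of this gene, and its capitals mark the 4 copies of TCCAG. The pair of SNRPD3 probes is shown with the 25 bases that they share in capitals. The remaining probes are those of SRSF5, HNRNPA1 and HNRNPAB, which rose, and of SFRS8 and SNRPB2, which fell.
SF3B1 at 441: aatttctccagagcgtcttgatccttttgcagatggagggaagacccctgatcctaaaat
SF3B1 at 1478: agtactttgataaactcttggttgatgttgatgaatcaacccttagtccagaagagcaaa
SF3B1 at 3528: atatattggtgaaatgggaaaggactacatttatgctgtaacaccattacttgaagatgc
SF3B1 at 3692: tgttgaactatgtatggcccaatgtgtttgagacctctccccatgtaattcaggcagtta
SRSF2 at 513: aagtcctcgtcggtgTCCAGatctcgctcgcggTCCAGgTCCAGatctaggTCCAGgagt
SNRPD3 at 636: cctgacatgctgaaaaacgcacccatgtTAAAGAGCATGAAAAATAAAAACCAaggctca
SNRPD3 at 664: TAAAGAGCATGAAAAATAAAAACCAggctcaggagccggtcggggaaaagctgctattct
SRSF5: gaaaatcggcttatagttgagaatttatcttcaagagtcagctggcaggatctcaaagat
HNRNPA1: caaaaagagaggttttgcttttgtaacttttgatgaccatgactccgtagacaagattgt
HNRNPAB: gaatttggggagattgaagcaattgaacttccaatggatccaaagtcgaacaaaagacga
SFRS8: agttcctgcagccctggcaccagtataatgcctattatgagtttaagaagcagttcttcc
SNRPB2: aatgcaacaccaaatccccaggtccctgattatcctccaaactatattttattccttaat

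Among the 199 probes, 184 were well above background on all 35 arrays and none was saturated. Over whole arrays, the share of probes above background ranged from 55.2% to 68.0%. The 75th percentile of processed intensity was lowest in F1 TN pigs, at 150 ± 28.3 (SD, n = 6) against 238 ± 35.6 in F1 HS pigs, and lay between 202 and 228 on average in the other groups. Blood was recognizable by its markers, since HBB of red cells, CD3E of T cells and MS4A1 of B cells were above background on all 35 arrays.

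With breed and climate as additive terms, 77 of the 199 probes (38.7%) were differentially expressed at a limma adjusted p under 0.05, of which 71 (35 genes) were up-regulated and 6 (6 genes) down-regulated. Over all 39072 probes of the table, 34.8% were called (20.1% higher and 14.7% lower in HS), so the share of splicing probes called was close to the background. The share of up-regulated probes among those called was larger, with 71 of 77 against 7842 of 13601. The HS minus TN difference was above 0 in 144 of the 199 probes (72.4%, against 59.8% of all probes), with a median of 0.14 on the log2 scale against 0.06 for all probes and a range from -0.39 to 0.46. On this scale a difference of 1 stands for a doubling of intensity. The sign was the same within each of the 3 breeds in 117 of 199 probes, against 56.6% of all probes. Without the F1 pigs 0 of 199 were called (median 0.06), as were 0 of all probes. Within CR or LW alone 0 of 199 and 0 of all probes were called. Leaving out F1 also leaves fewer pigs, so dependence on F1 was not separated from lost power. Once the mean of erythroid markers, which was lower in HS pigs, entered the model, 0 of 199 were called (median 0.07), against 1 of all probes. As this mean itself differed with climate, the model also takes up part of the climate contrast. The reason for the lost calls was not tested.

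The shares called in each family are to be read against the 34.8% of all probes called, with a median HS minus TN of 0.06. The snRNP proteins had 14 probes up and 2 down of 29 (55.2% called, median HS minus TN 0.21), but 10 of these probes were of SNRPD3, and without them 7 of 19 were called (36.8%, median 0.12). The hnRNPs had 18 up and 2 down of 41 (48.8%, median 0.17). In the SR proteins 19 probes rose and 2 fell of 65 (32.3%, median 0.16). For the PRPF genes 12 rose and none fell of 35 (34.3%, median 0.03). The SF3A and SF3B subunits had 8 up and none down of 29 (27.6%, median -0.11), but 17 of these 29 probes belonged to SF3B1, with a median of -0.21. Without SF3B1, 5 of 12 were called, all up (41.7%, median 0.13). The shares of the SR proteins, the PRPF genes and the snRNP proteins without SNRPD3 were thus close to that of all probes. Differences between families were not tested.

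**Figure D1:**
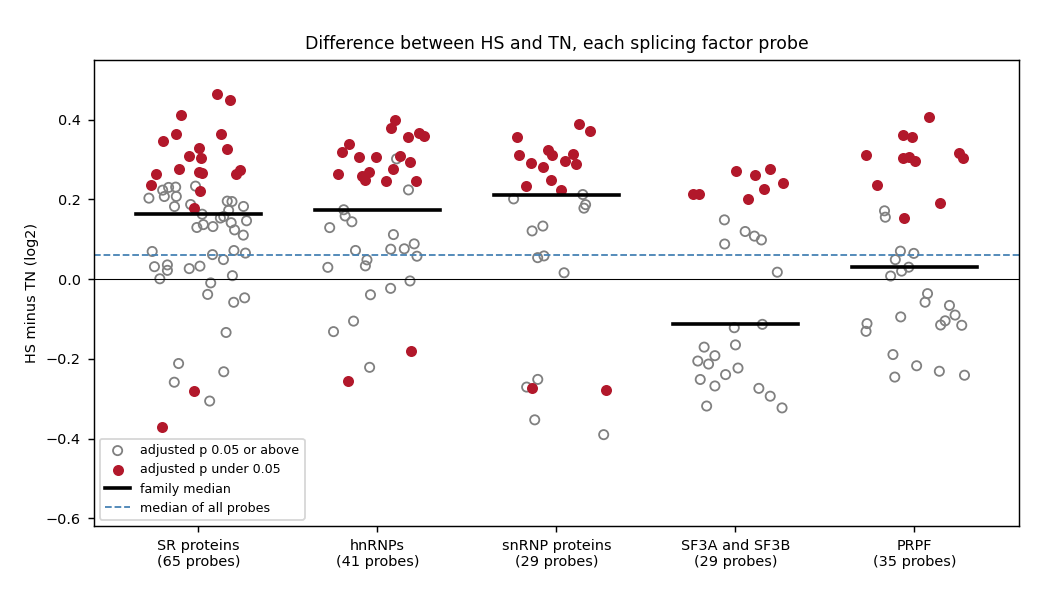
HS minus TN in log2 units (vertical axis) for each of the 199 probes by family, with red points for an adjusted p under 0.05, open points for the others, a black bar at each family median and a dashed line at the median of all 39072 probes (0.06). Called probes lie almost all above 0, and the SF3A and SF3B family has a second cloud of uncalled probes below 0.

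SRSF5, an SR protein that binds exonic enhancers, had the largest rise of all members. In CR pigs, SRSF5 measured 8.63, 8.75, 8.98 and 9.04 in 4 of the TN pigs, with the fifth between 8.98 and 9.04, against a lowest, median and highest value of 8.73, 9.29 and 9.77 in HS. In F1 pigs, SRSF5 had a lowest, median and highest value of 8.65, 8.78 and 8.91 in TN and of 9.23, 9.39 and 9.83 in HS. In LW pigs, SRSF5 measured 8.66, 9.10 and 9.31 in TN and 9.23, 9.44 and 9.62 in HS in the same order. The F1 groups were separate, while the CR and LW groups overlapped, with 2 CR HS pigs (8.73 and 8.81) inside the range of CR TN. The difference was 0.46 ± 0.08 (standard error, as for all differences below; limma adjusted p = 0.00159), and 16 of 18 HS pigs were above the TN mean of their breed. A total of 4 of the 5 SRSF5 probes rose, by 0.33 to 0.46, and the remaining one, well above background on 16 arrays only, differed by 0.02.

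Other members with the SRSF or SFRS prefix rose as well. SFRS15, now known as SCAF4 and linked to transcription termination, rose by 0.41 ± 0.08 (adjusted p = 0.00159), from a range of 9.07 to 9.71 in F1 TN to 9.90 to 10.22 in F1 HS without overlap. SRSF11, an SR-related nuclear protein, rose by 0.36 ± 0.08 (adjusted p = 0.00227) on its leading probe, and its F1 groups did not overlap. A total of 3 of the 10 SRSF11 probes rose and 7 were not called. SRSF4 rose on 2 of 3 probes, and SRSF2, which activates many exons, on 3 of 9. For SRSF1, a founding SR protein, none of the 5 probes passed the test although all 5 were positive, from 0.05 to 0.23, and SRSF9 was called on 1 of 7 probes, all positive, beside 1 probe under its former name SFRS9 that rose by 0.31. PNISR, formerly SFRS18, was positive on 8 of 8 probes and called on 2 of them. SRSF3 had a difference of 0.01 on its 1 probe in the table.

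A pair of probes in this family moved the other way. SFRS8, now known as SFSWAP and named after a fly regulator of its own splicing, measured 8.05, 8.33, 8.69, 8.77 and 9.02 in CR TN pigs and 8.26, 8.41 and 8.80 as lowest, median and highest in CR HS. In F1 pigs, SFRS8 had values of 8.68, 9.13 and 9.54 in TN and 8.04, 8.35 and 8.65 in HS in that order. In LW pigs, SFRS8 had values of 8.41, 8.89 and 9.04 in TN and 8.41, 8.61 and 8.85 in HS. Only the F1 groups were separate, the CR groups spanning nearly the same range. SFRS8 fell by 0.37 on the log2 scale (standard error 0.10, adjusted p = 0.00785), with a within-F1 difference of -0.81 ± 0.16. The probe listed under the former name SFRS5 fell by 0.28 (standard error 0.08, adjusted p = 0.0102), opposite to 4 SRSF5 probes that share none of its bases over a run of 18. Which of these sequences stands for the gene was not tested.

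**Figure D2:**
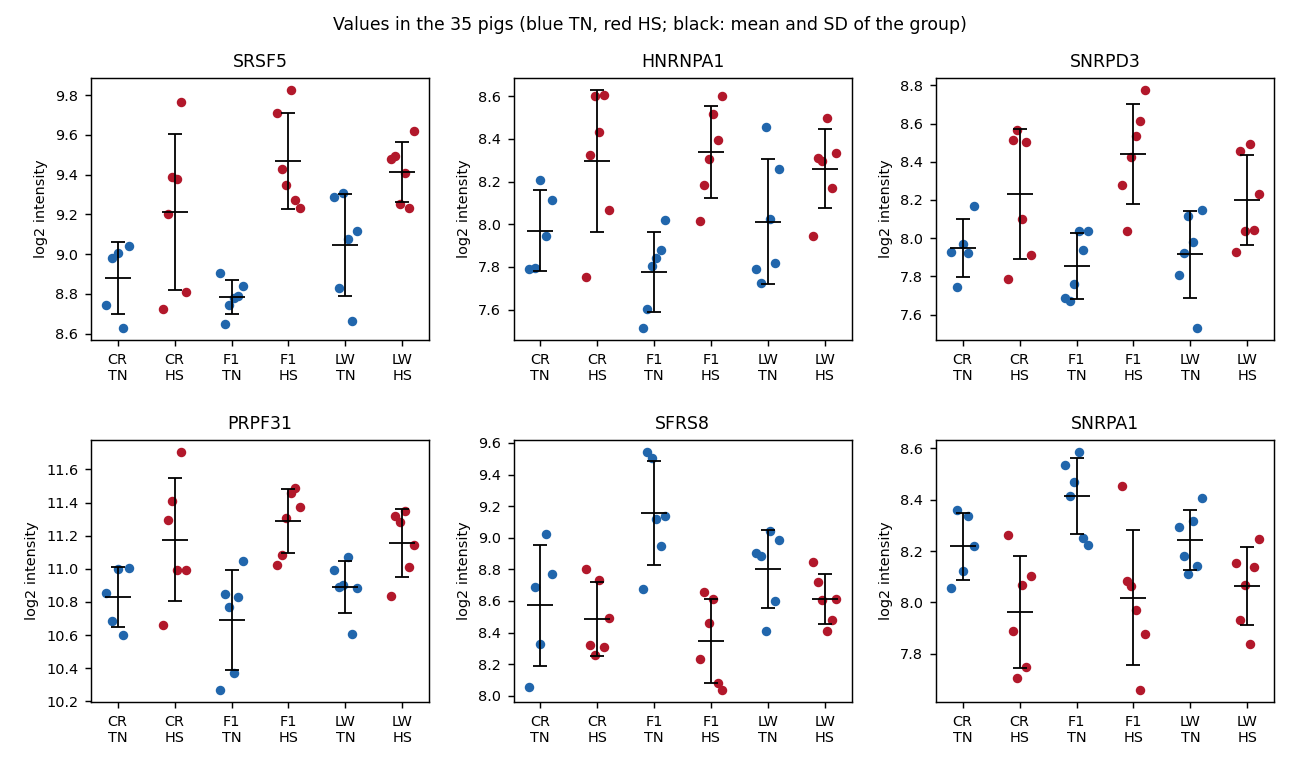
Log2 intensity in each of the 35 pigs for 1 probe of SRSF5, HNRNPA1, SNRPD3, PRPF31, SFRS8 and SNRPA1, by breed and climate (blue TN, red HS), with the mean and SD of each group in black. In F1 the HS mean lies above the TN mean for the first 4 genes, for SRSF5 without overlap of the pigs, and below it for SFRS8, again without overlap, and SNRPA1.

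HNRNPA1, an abundant shuttling hnRNP that represses exons, was raised on every one of its 6 probes in the table, by 0.31 to 0.38. A pair of these probes shares 56 bases and another pair 24, so they are not all independent readings. In CR pigs, HNRNPA1 measured 7.79, 7.79, 7.94, 8.11 and 8.21 in TN and 7.75, 8.38 and 8.61 as lowest, median and highest in HS on the probe shown above. In F1 pigs, HNRNPA1 values were 7.51, 7.82 and 8.02 in TN and 8.02, 8.35 and 8.60 in HS. In LW pigs, HNRNPA1 values were 7.72, 7.92 and 8.46 in TN and 7.95, 8.30 and 8.50 in HS. The F1 groups only touched at their ends, and the others overlapped widely. The difference was 0.38 ± 0.08 (adjusted p = 0.00187). HNRNPA1 has many processed copies in mammalian genomes, and 4 of its probes share bases with probes of other names, so these readings may not come from 1 locus.

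HNRNPAB, a relative of the A and B type hnRNPs, rose on 4 of 6 probes. In CR pigs, HNRNPAB measured 8.89, 8.90, 9.23, 9.24 and 9.36 in TN and 8.86, 9.74 and 9.90 as lowest, median and highest in HS. In F1 pigs, HNRNPAB values were 8.53, 8.85 and 9.34 in TN and 9.34, 9.61 and 9.93 in HS. In LW pigs, HNRNPAB values were 8.95, 9.15 and 9.67 in TN and 8.74, 9.33 and 9.56 in HS. The groups overlapped in each breed, with the lowest F1 HS pig level with the highest F1 TN pig. The difference was 0.40 ± 0.11 (adjusted p = 0.0054), made of 0.45 ± 0.18 in CR, 0.70 ± 0.17 in F1 and 0.05 ± 0.17 in LW pigs.

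HNRNPR, which binds mRNA in nucleus and cytoplasm, rose by 0.31 ± 0.07 (adjusted p = 0.0021) on 1 of its 2 probes. Its F1 HS pigs lay between 10.26 and 10.40 and its F1 TN pigs between 9.71 and 10.03. HNRNPH3 was positive on all 7 probes and called on 2. HNRNPK, HNRNPM, HNRNPU, HNRNPUL2 and HNRNPA3 each had 1 called probe, all up. Both probes that fell belonged to HNRNPD and HNRNPF. HNRNPD, which binds AU-rich elements and speeds mRNA decay, fell by 0.26 (standard error 0.09, adjusted p = 0.024), from 16.23 to 16.92 in F1 TN to 15.84 to 16.40 in F1 HS. HNRNPF, which binds G-rich tracts, fell by 0.18 (standard error 0.07, adjusted p = 0.0437), and 19 of the 35 fits that left out 1 pig lost this call. HNRNPA2B1 (-0.22) and HNRNPC (0.08 to 0.14 over 2 probes) were not called.

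SNRPD3, a core Sm protein, was raised on 9 of 10 probes, by 0.25 to 0.39. Several of these probes overlap and 2 pairs are identical, so they are not independent readings. In CR pigs, SNRPD3 measured 7.74, 7.92, 7.93, 7.97 and 8.17 in TN and 7.79, 8.30 and 8.56 as lowest, median and highest in HS. In F1 pigs, SNRPD3 values were 7.67, 7.85 and 8.04 in TN and 8.04, 8.48 and 8.78 in HS. In LW pigs, SNRPD3 values were 7.53, 7.95 and 8.14 in TN and 7.93, 8.14 and 8.49 in HS. The difference on this probe was 0.39 ± 0.08 (adjusted p = 0.00174), with 16 of 18 HS pigs above the TN mean of their breed. The F1 groups touched at their ends only.

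The other snRNP proteins went both ways. SNRPC, a U1 protein that helps to recognize the 5′ splice site, rose by 0.31 ± 0.11 (adjusted p = 0.0285) on its leading probe and on 2 of 5 in all, which are identical in sequence and share bases with a probe named for VCP. SNRPB, another Sm protein, rose by 0.29 ± 0.10 (adjusted p = 0.0256). SNRPA of the U1 snRNP rose on both of its probes, by 0.22 and 0.23, but both share bases with 1 unnamed probe, one on the same and the other on the opposite strand, so the pair reads opposite strands. Of the pair of U2 proteins, SNRPA1 fell by 0.28 (standard error 0.06, adjusted p = 0.0025) and SNRPB2 by 0.27 (standard error 0.07, adjusted p = 0.00438). For SNRPB2, 4 more probes, listed under another name that the accession ties to this gene, differed by -0.23 (adjusted p = 0.0119), -0.02, 0.04 and 0.12, the last 3 not called, and the mean over all its probes was -0.07 and not called. SNRPA1 measured 8.06, 8.12, 8.22, 8.33 and 8.36 in CR TN pigs and 7.71, 7.98 and 8.26 as lowest, median and highest in CR HS. In F1 pigs, SNRPA1 values were 8.22, 8.44 and 8.59 in TN and 7.66, 8.02 and 8.45 in HS. In LW pigs, SNRPA1 values were 8.11, 8.24 and 8.41 in TN and 7.84, 8.10 and 8.25 in HS. The groups overlapped in each breed, and 15 of 18 HS pigs were below the TN mean of their breed. The Sm genes SNRPE (-0.35 to -0.25 over 3 probes) and SNRPG (-0.39) were not called, and their within-group SD was 0.65 to 0.82.

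PRPF31, which joins U4/U6 to U5, rose by 0.41 ± 0.09 (adjusted p = 0.00165). In CR pigs, PRPF31 measured 10.60, 10.69, 10.86, 11.00 and 11.01 in TN and 10.66, 11.14 and 11.71 as lowest, median and highest in HS. In F1 pigs, PRPF31 values were 10.27, 10.80 and 11.05 in TN and 11.03, 11.34 and 11.49 in HS. In LW pigs, PRPF31 values were 10.61, 10.90 and 11.07 in TN and 10.83, 11.21 and 11.35 in HS. All 3 pairs of groups overlapped, in F1 by 1 TN pig that read higher than the lowest HS pig. PRPF6, a bridge within the tri-snRNP, rose by 0.36 ± 0.08 (adjusted p = 0.00246), with similar values of 0.33 ± 0.15 in CR, 0.41 ± 0.14 in F1 and 0.33 ± 0.14 in LW pigs. PRPF8, the U5 protein at the heart of the catalytic site, rose by 0.24, and PRPF19, the ubiquitin ligase of the complex named after it, on both of its probes. However, 1 of these PRPF19 probes was dim, well above background on 20 arrays only. These were 6 of F1 HS, 4 each of CR TN, CR HS and LW HS, and 1 each of F1 TN and LW TN. PRPF38B rose by 0.36 ± 0.10 (adjusted p = 0.00603) on its leading probe and on 4 of 8. PRPF3 rose on 2 of 4 probes, and another PRPF3 probe, which shares bases with probes named for the ribosomal protein gene RPS12, was not called (0.17, adjusted p = 0.051). None of the 6 probes of PRPF39, a U1-associated factor, was called.

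Among the SF3B subunits, SF3B2 rose by 0.28 ± 0.07 (adjusted p = 0.00329) and SF3B5 by 0.26 ± 0.07 (adjusted p = 0.00647). For SF3B5 the HS pigs exceeded all TN pigs both in F1 (12.32 to 12.69 against 11.78 to 12.21) and in LW (12.20 to 12.50 against 11.90 to 12.14), whereas in CR the difference was 0.03 ± 0.12. SF3B4 rose on both probes, of which 1 was well above background on 29 arrays only, 3 of them F1 TN and 6 F1 HS. The 4 probes of SF3A1 were positive, from 0.02 to 0.12, and not called, and SF3A3 rose on 1 of 2.

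SF3B1, which holds the branch point adenosine and is often mutated in myeloid disease, gave a mixed reading over its 17 probes. The probe starting at base 1478 measured 10.50, 10.89, 10.94, 11.12 and 11.14 in CR TN pigs and 10.80, 10.99 and 11.43 as lowest, median and highest in CR HS. In F1 pigs, SF3B1 at base 1478 had values of 10.59, 10.78 and 10.88 in TN and 11.01, 11.12 and 11.36 in HS. In LW pigs, SF3B1 at base 1478 had values of 10.64, 10.86 and 11.34 in TN and 10.92, 11.11 and 11.46 in HS. The F1 groups were separate, the difference was 0.27 ± 0.07 (adjusted p = 0.0051), and 17 of 18 HS pigs were above the TN mean of their breed. The probes starting at bases 441 and 2612 rose as well, by 0.21 ± 0.08 (adjusted p = 0.0465) and 0.23 ± 0.09 (adjusted p = 0.0419). None of the 12 probes that start at base 3423 or beyond was called, and 11 of these were negative, from -0.32 to -0.11, beside 1 at 0.09. At base 4060, SF3B1 values ran from 8.46 to 10.85 in F1 TN pigs and from 9.27 to 10.96 in F1 HS pigs, so the spread within a group exceeded any difference between them.

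A similar order along the transcript was found in some other genes with several placed probes, which were chosen after their values had been seen. How many genes showed this order and how many did not was not counted. In SRSF2, the probes at bases 513 and 606 rose by 0.30 and 0.18, and the 5 probes from base 1495 onwards lay between -0.26 and 0.06. In SRSF11, the probes at 386 and 780 rose by 0.27 and 0.36, and those from 1650 onwards lay between -0.31 and 0.07. In PRPF38B, the probes at 891 and 978 rose by 0.30 and 0.31, against 0.06 at 2189 and -0.23 to -0.12 from 2768 onwards. SRSF5 went from 0.45 at base 318 and 0.46 at 467 to 0.33 at 776 and 0.02 at 1572. This last probe was dim, well above background on 16 arrays only, so its value is no clear sign of a decline. In SNRPD3, with starts from 636 to 876, all probes were positive. These starts are positions in the target sequence that the array design used. Of 28 pairs of probes whose listed starts overlap, 26 share a run of 18 or more bases. Whether the whole overlap matches at the listed distance was not checked. Whether the probes of a gene detect different transcripts was not tested.

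**Figure D3:**
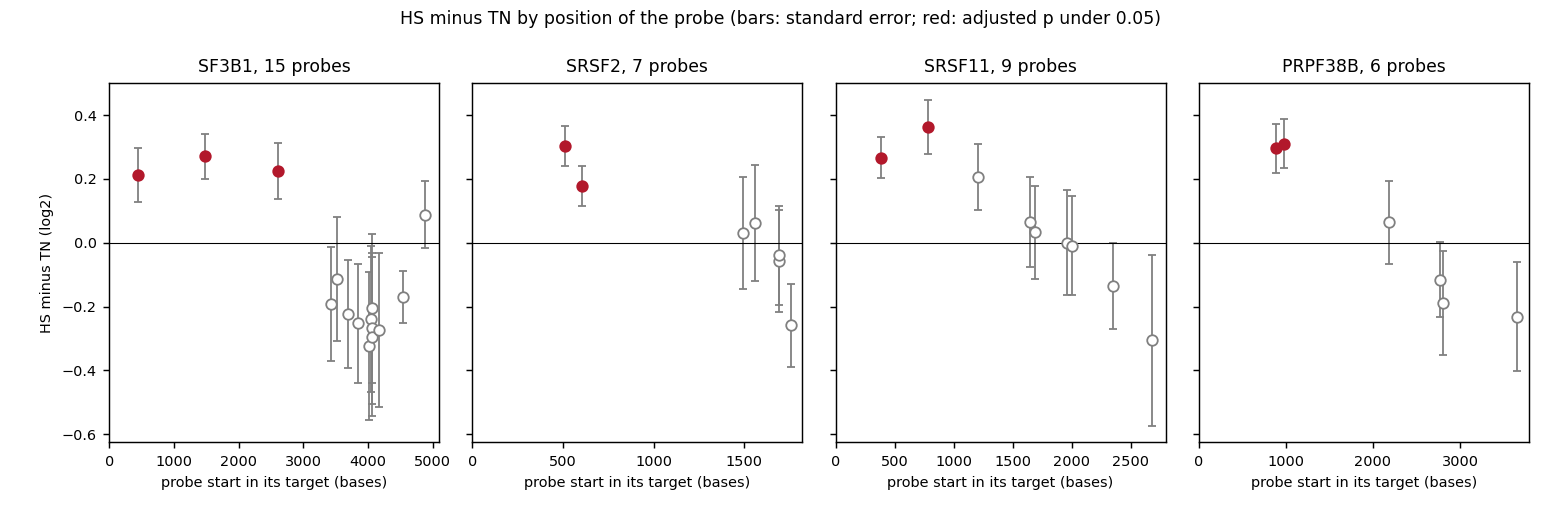
HS minus TN in log2 units with its standard error against the start of the probe in its target transcript, for the placed probes of SF3B1, SRSF2, SRSF11 and PRPF38B, with red points for an adjusted p under 0.05. In each gene the called probes are those nearest to the start, and most of the probes farther on lie near or below 0.

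These uncalled probes had a wide spread between pigs of the same group. The within-group SD of the 199 probes had a median of 0.27, equal to that of all probes, and ranged from 0.12 to 0.84. It was above 0.5 in 28 probes of 12 genes (14.1%, against 9.8% of all probes), among them 12 of SF3B1, all 3 of SNRPE, 2 each of SRSF2, PRPF38B and PRPF39, and 1 each of SNRPG, SRSF11, HNRNPH1, HNRNPK, SFRS13A and SFRS2IP. Of these 28 probes 26 had a negative HS minus TN difference, with a median of -0.24, and none was called. Among the other 171 probes, 142 were positive, with a median of 0.18, and 77 were called. The limit of 0.5 was set after the values had been seen, so these counts are a description. Signs and calls on either side of the limit were not counted over all probes. The pattern is therefore not shown to be particular to splicing factors. Several of the SF3B1 probes share bases, so the 28 probes are not independent readings. The test sets each difference against this same spread, so fewer calls above the limit were partly built into the split.

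In several groups the same pig was at one end for most of the 28 probes. LW HS replicate 5 was the highest of its group on 28 of 28 probes, on average 1.12 above the group mean, and LW TN replicate 3 on 28 of 28, by 1.05. LW TN replicate 6 was the lowest on 28 of 28, at -1.10, and F1 TN replicate 3 on 23 of 28, at -1.09. In CR pigs, HS replicate 4 was highest on 26 and TN replicate 1 on 23 of the probes, and TN replicate 2 was lowest on 24. At the other ends the most frequent pig held the place on fewer probes, from 11 for the lowest CR HS pig and 15 for the highest F1 TN pig to 21 for the highest F1 HS pig. The first principal component of the deviations from group means held 58.9% of the variance over the 199 probes, against 24.1% over all probes of the table. The cause of this shared variation was not tested.

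**Figure D4:**
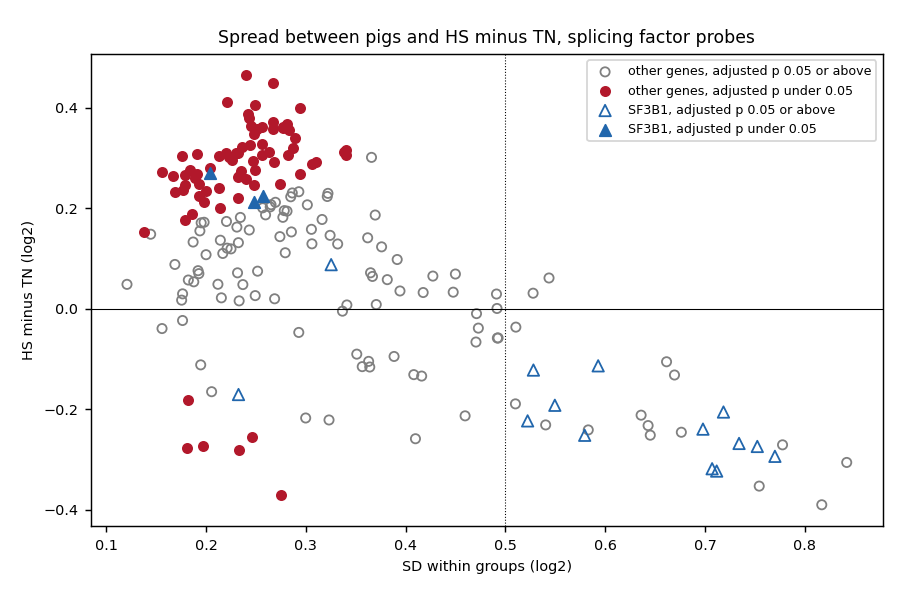
HS minus TN in log2 units (vertical axis) against the SD within groups in log2 units (horizontal axis) for the 199 probes, with SF3B1 as blue triangles, called probes filled and a dotted line at an SD of 0.5. Called probes have an SD below this line, and 26 of the 28 probes to its right are negative.

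Identical probes showed the error of the array itself. In the 6 pairs of members with the same 60 bases (of PRPF38B, SNRPC, SRSF2 and SRSF9, and 2 of SNRPD3), the median difference between the 2 readings of a pig was 0.06 to 0.14, and the largest was 0.42. Their HS minus TN values differed by 0.01 to 0.04. For SRSF9 this small gap (0.26 against 0.23) put one probe below and the other above the threshold, with adjusted p of 0.0185 and 0.073. Calls also varied with the base composition of the probe. With up to 35% G and C, 14 of 69 probes were called (22% over all probes of the table), from there to 40% 17 of 41 (28.7%), to 45% 41 of 81 (39.2%) and above 45% 5 of 8 (49.8%).

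Within a single breed, differences were called in F1 pigs only, which does not by itself show that the breeds differed. In F1 pigs 89 of 199 probes (44.7%) passed, of which 80 were up and 9 down, against 38.7% of all probes (20.8% up and 17.9% down). The arrays of F1 TN pigs were the dimmest, with a 75th percentile of intensity of 150 against 238 in F1 HS and a median share of probes above background of 59.8% against 64.8%, and their erythroid mean was 11.23 against 10.13. With each array scaled to its 75th percentile in place of quantile normalization, 89 members were called within F1. This count is given without the share of all probes on this scale, so it does not set splicing factors apart from other genes. Over all pigs, HS minus TN on this scale called 74 members up and 7 down, against 7590 up and 6403 down of all probes. The median HS minus TN was 0.33 in F1, against 0.13 for all probes, and values of HS and TN pigs did not overlap for 24 of the 199, against 11.7% of all probes. In CR pigs limma called 0 of 199 (0% of all probes), with 14 at an unadjusted p under 0.05, a smallest adjusted p of 0.557 and a median of 0.08 against 0.03. In LW pigs it called 0 of 199 (0% of all probes), with 25 at an unadjusted p under 0.05, a smallest adjusted p of 0.563 and a median of 0.03 against 0.01. By family, the F1 median was 0.41 for snRNP proteins, 0.39 for hnRNPs, 0.37 for SR proteins, and 0.14 for both PRPF and the SF3A and SF3B subunits.

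The test of the interaction between breed and climate called 0 of 199 members (0% of all probes), with 20 at an unadjusted p under 0.05 and a smallest adjusted p of 0.278, which was that of SFRS8 among others. The difference of the HS effect between F1 and LW called 0 (0% of all probes), with 46 at an unadjusted p under 0.05, a smallest adjusted p of 0.122 and a median of 0.29 against 0.07 for all probes. Between F1 and CR it also called 0 (0%), with 15 unadjusted, a smallest adjusted p of 0.398 and a median of 0.23 against 0.06. Between LW and CR it called 0 (0%), with 0 unadjusted and a median of -0.08. These 3 differences share pigs with one another. Examples with unlike values were HNRNPAB (0.70 ± 0.17 in F1 and 0.05 ± 0.17 in LW) and PRPF38B (0.65 ± 0.16 in F1 and 0.12 ± 0.16 in LW), while PRPF6 was alike in all breeds.

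**Figure D5:**
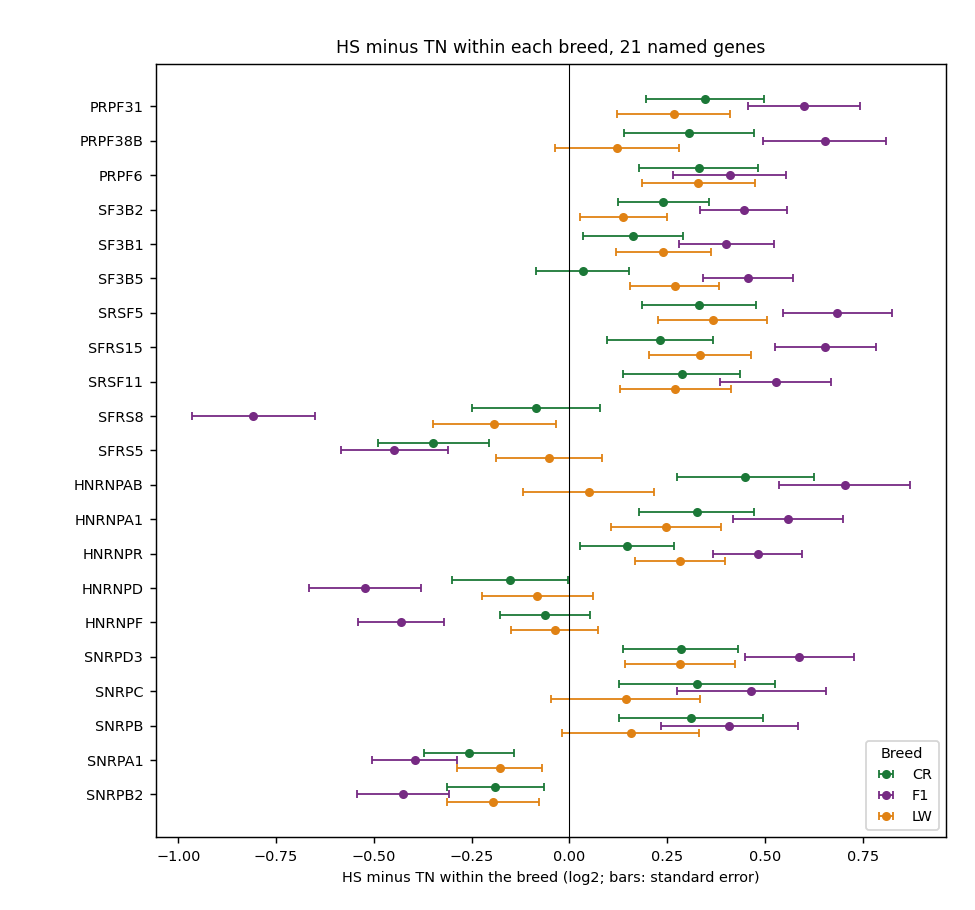
HS minus TN within CR, F1 and LW pigs in log2 units with its standard error, for the 21 named genes. The F1 value lies farthest from 0 in each gene shown, and the CR and LW values lie on the same side of 0, which the choice of genes required.

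No difference between breeds in the level of these transcripts passed the threshold. Averaged over climates, CR minus LW called 0 of 199 (1.08% of all probes), with 10 at an unadjusted p under 0.05 and a smallest adjusted p of 0.245. F1 minus CR called 0 (0.184% of all probes), with 3 unadjusted and a smallest adjusted p of 0.578. F1 minus LW called 0 (0.0256% of all probes), with 7 unadjusted and a smallest adjusted p of 0.649, and was below 0 in 153 of 199 probes with a median of -0.08.

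Of the 6 groups, F1 TN had the lowest mean over the 199 probes. This mean log2 value was 8.51 ± 0.16 (SD) in F1 TN pigs, against 8.67 ± 0.16 in CR TN and 8.73 ± 0.21 in LW TN pigs. Under HS it was 8.77 ± 0.18 in F1, 8.74 ± 0.20 in CR and 8.70 ± 0.15 in LW pigs. The HS means lay closer together than the TN means, and the ranges of all groups overlapped.

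Markers of blood cells are given beside these results, to be read against the 34.8% of all probes called (20.1% higher and 14.7% lower). Of 36 probes of 22 erythroid genes, 18 fell and 1 rose (median HS minus TN -0.59, and -1.08 in F1 pigs), while HBB and AHSP, the brightest of them, were not called. The mean of the erythroid list was 11.23 in F1 TN pigs (10.37 to 12.28) and 10.13 in F1 HS pigs (9.12 to 10.69), 10.90 in CR TN (10.22 to 11.40) and 10.42 in CR HS (9.68 to 11.32), and 10.91 in LW TN (10.50 to 11.34) and 10.64 in LW HS (10.08 to 11.06). T cell markers rose on 13 of 36 probes and fell on none, B cell markers rose on 6 and fell on 1 of 14, monocyte markers rose on 5 of 28, neutrophil markers rose on 4 and fell on 2 of 28, and none of 14 platelet probes was called. The mean of the T cell list was 8.75 in F1 TN (8.59 to 9.04) and 9.18 in F1 HS pigs (8.71 to 9.52). With the erythroid mean of each array added to the model, 0 of 199 members were called (1 of all probes), their median HS minus TN was 0.07 against 0.01 for all probes, and 66.8% were positive. The erythroid mean and climate overlap in this model, so the reason for the lost calls was not tested. Without the F1 pigs, 0 of 199 members and 0 of all probes were called, with a median of 0.06 against 0.02.

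Arrays were spread over 5 slides, and the comparison could be repeated within 4 of them. With breed in the model, the members' median HS minus TN on slide 1 (8 arrays, 36.7% positive) was -0.10, against 0.01 over all probes. On slide 2 (7 arrays, 65.3% positive) it was 0.14 against 0.06, and on slide 3 (8 arrays, 61.3% positive) 0.13 against 0.04. On slide 4 (8 arrays, 93% positive) it was 0.26 against 0.08. The 21 named genes were chosen on these same arrays, so their signs within slides are no check. With slide as a block over all arrays, 76 of 199 members were up and 6 down, against 8415 up and 6014 down of all 39072 probes.

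Other genes of the splicing machinery, listed by their roles, were called about as often as all probes. Of 298 probes of 114 genes, 86 rose and 11 fell (32.6% called and median 0.09, against 34.8% and 0.06 over all probes). Proteins specific to U snRNPs or to the tri-snRNP rose on 18 and fell on 1 of 42 probes, among them PPIH (0.35 and 0.47) and both probes of SNRNP70, the U1 protein that binds its RNA (0.29 and 0.31), while SNRNP27 fell by 0.70. Partners in U2 recruitment rose on 8 and fell on 1 of 20, with U2AF1 of the 3′ splice site up on both probes (0.21 and 0.26). The PRPF19 complex and the helicases of the catalytic steps rose on 15 and fell on none of 44, such as CTNNBL1 (0.41). Exon junction and SR-related proteins rose on 14 and fell on 4 of 79, regulators related to hnRNPs rose on 27 and fell on 4 of 86, and SR protein kinases and phosphatases rose on 4 and fell on 1 of 27. Of the hnRNP-related regulators, EWSR1 rose on 3 of 6 probes (0.43 to 0.52), PTBP1, which represses exons, rose on 3 of 5 (0.30 to 0.39), and RALY fell by 0.86.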

How the data were processed

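RNA of whole blood from 35 pigs was labelled with Cy3 and hybridised to 1-colour Agilent pig arrays with 60-base probes, and the scans were read with Agilent Feature Extraction 10.10.1.1 per the file headers. The log2 values deposited by the authors had been quantile normalized and filtered to 39072 probes by a rule not given in the sources used here. The deposited scanner files hold raw and processed intensities, which served for flags of signal above background and for alternatives. Log2 values recomputed here from the median intensity differed from those of the authors by 0.02 (median) and at most 0.32. Arrays have no read depth, and their number limits the precision.

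Groups came from the labels, and pigs were numbered within groups in accession order, which pairs no samples. The authors' random effects of pen, slaughter day, sire and dam have no labels and were not fitted. All probes of the table were fitted with limma 3.58.1 in R 4.3.3 (lmFit and eBayes), with breed and climate as additive terms for HS minus TN and for breeds, and with 6 group means for effects within breeds and their interaction. P-values were adjusted by Benjamini-Hochberg over all 39072 probes at a threshold of 0.05. The fits were tested on simulated data.

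Splicing factors were found by the prefix of the gene name. Older names were updated to current symbols for 4 probes by symbol and 7 by accession, 180 matched a current symbol and 16 kept the name of the file. Named genes were, for each of 5 families, up to 3 that rose and 3 that fell, by size, among called probes whose HS effect had 1 sign throughout CR, F1 and LW, and likewise for breed contrasts and the interaction, where none passed. Genes named outside this rule were chosen after their values had been seen. Members, gene lists and marker lists were chosen with earlier results of these data known. Shared sequence means a run of 18 bases. Alternatives covered the source of the values, scaling, background correction, probe filter, gene means, slide as a block, array weights, F1 pigs left out, the erythroid marker mean as a covariate and each array left out in turn. No genome was used, so no coordinates are given. The values of 1 gene are not reported here.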

Additional observations from a re-analysis of the deposited data

Results flagged for a closer look

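In 4 of the 138 groups of pigs examined for the named genes, the mean of all splicing factors and the mean of the erythroid markers, 1 pig lay apart from the others by a gap larger than Dixon's test allows, which chance alone gives in about 1 of 20 groups. CR TN replicate 4 read 11.25 for SF3B2, below the 11.50 to 11.59 of the other CR TN pigs. CR TN replicate 2 read 6.55 for the probe listed as SFRS5, against 5.99 to 6.12, and 6.01 for HNRNPF, against 5.58 to 5.69. F1 HS replicate 2 read 7.27 for SNRPB, below 7.73 to 7.97. Each of the 4 genes kept its sign without that pig.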

How the results depend on the processing

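Of the 21 named genes, all kept their direction in HS minus TN under every alternative run, except SF3B1, which turned to -0.13 (adjusted p = 0.526) when the probes of a gene were averaged. With gene means, 26 genes were called in HS minus TN, 34 within F1 and 42 among the other splicing genes, out of fewer features tested. In HS minus TN these were 21 up and 5 down of 66 genes, against 5233 up and 4633 down over all features. PRPF38B (0.10), SRSF11 (0.08), HNRNPR (0.17) and SNRPB2 (-0.07) lost their call. Without F1 pigs, 0 members, 0 other splicing probes and 0 of all probes were called in HS minus TN. With the erythroid mean as a covariate, 0 members were called in HS minus TN (1 of all probes), 0 within F1 and 0 other splicing probes. All 21 named calls were lost in both, for reasons that were not tested. Array weights gave 93 members in HS minus TN, 63 within F1, 2 within CR and 1 for CR minus LW. In HS minus TN these were 84 up and 9 down, against 10237 up and 6883 down of all 39072 probes. The other alternatives gave 74 to 82 members in HS minus TN and 86 to 102 within F1. Leaving out 1 array at a time gave 66 to 97 members in HS minus TN, 71 to 97 within F1, 82 to 116 other splicing probes and 0 for the other comparisons. Where counts of members are given here without those of all probes, they compare settings only. They do not set splicing factors apart from other genes. HNRNPF lost its call in 19 of these 35 fits, with no filter and with array weights, and SNRPC in 3. No paired analysis was possible because the numbers of the pigs were given in accession order. Dim probes limit the reading of the 8 members outside the table.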
